A study of Mus musculus with 6 samples.

Results

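The expression of 9 G protein-coupled receptor, co-receptor and ligand genes of blood vessels and migrating mesoderm was followed after induction of Snail in differentiating mouse ESCs. They were chosen by name, with earlier results of these data known. They are Calcrl, Ramp2 and Adm of the adrenomedullin system, Aplnr and Apln of the apelin system, and Cxcr4 and Cxcl12 of the chemokine system. The others are the sphingosine 1-phosphate receptor S1pr1 and the endothelin receptor Ednra. Probe sets were taken where one of these was the only symbol in the array annotation. They were found for 8 of the 9 genes, 14 probe sets of the 34945 with 1 symbol. No such probe set was found for Ednra, so it was not analysed here.

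Adrenomedullin is a secreted peptide that acts on a receptor made of 2 proteins, the receptor Calcrl and the single-pass co-receptor Ramp2, and mice lacking either of these or the peptide have defective vessels. Aplnr is expressed in early mesoderm and vascular precursors and binds 2 peptides, apelin and Apela. Cxcl12 attracts cells that carry Cxcr4, and S1pr1 and Ednra, which bind a sphingolipid and endothelin peptides, act in vessel stabilisation and in neural crest and vascular smooth muscle.

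A2.Snail cells are a single line of mouse ESCs, derived from A2lox cells, that carry a Snail transgene under the control of doxycycline (dox). All cultures were grown as embryoid bodies in serum with DKK1 (DKK), a secreted inhibitor of Wnt signaling. In the DKK + dox cultures, dox was added at 250 ng/mL on day 2, and the DKK cultures received none. RNA was taken 6, 12 and 24 hours after that point (days 2.25, 2.5 and 3) for 6 Affymetrix arrays. Each condition had 1 array at each time, and no single-time difference can be checked against replicates. No array had dox without Snail, so effects of dox and of Snail cannot be told apart. The deposited values are linear intensities. Below, a gene that rose or fell was higher or lower in DKK + dox than in DKK, whatever its course over time. Positive differences mean higher in DKK + dox than in DKK. They are on the log2(intensity + 20.6) scale, which understates the change of genes with low signal, and 37.2, the 40th percentile of all values, is called the low-signal limit. Each array had 37.5 to 41.3 percent of its probe sets at this limit or lower. The fitted difference of a gene is the 24 hour value of a difference that grows in proportion to hours, from limma with time as a block, and its p-value tests that difference against 0. The error comes from the scatter of the arrays around the trend, with no replicate cultures behind it. The probe set of Snai1 lay under the low-signal limit on all 6 arrays and does not check the labels. Cdh1 (E-cadherin) was lower with dox at each time, by -0.37, -1.05 and -1.02.

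With Snail induced, 3 of the 9 genes rose, all of them receptors or co-receptors, and 1 ligand fell (limma, adjusted p under 0.05). Calcrl, Ramp2 and Aplnr were the 3 that rose, and Cxcl12 was the 1 that fell. Of the 14755 genes tested, 7 of the 9 among them, 8.32 percent rose and 6.38 percent fell. These shares are given for scale and do not test the 9, which were chosen with earlier results of these data known. Calcrl and Aplnr lay above the low-signal limit only on DKK + dox arrays, and Ramp2 alone rose when signal was required on all 6 arrays. None of the 3 passed without the 24 hour pair or with an equal difference at each time. Of the others, Adm, Apln and S1pr1 did not pass, Cxcr4 lay under the low-signal limit on all 6 arrays and was not tested, and Ednra was not analysed. At 24 hours Calcrl, Ramp2 and Aplnr were at least 2-fold higher, and none of the 8 measured genes was at least 2-fold lower (3.12 and 2.2 percent of genes tested). At 12 hours Calcrl was at least 2-fold higher and Cxcl12 at least 2-fold lower (1.27 and 2.25 percent). At 6 hours none of the 8 was 2-fold apart in either direction (0.271 percent higher and 0.468 percent lower). The median difference over the 8 measured genes was 0.07 at 24 hours, against 0.02 over all genes tested.

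**Figure D1:**
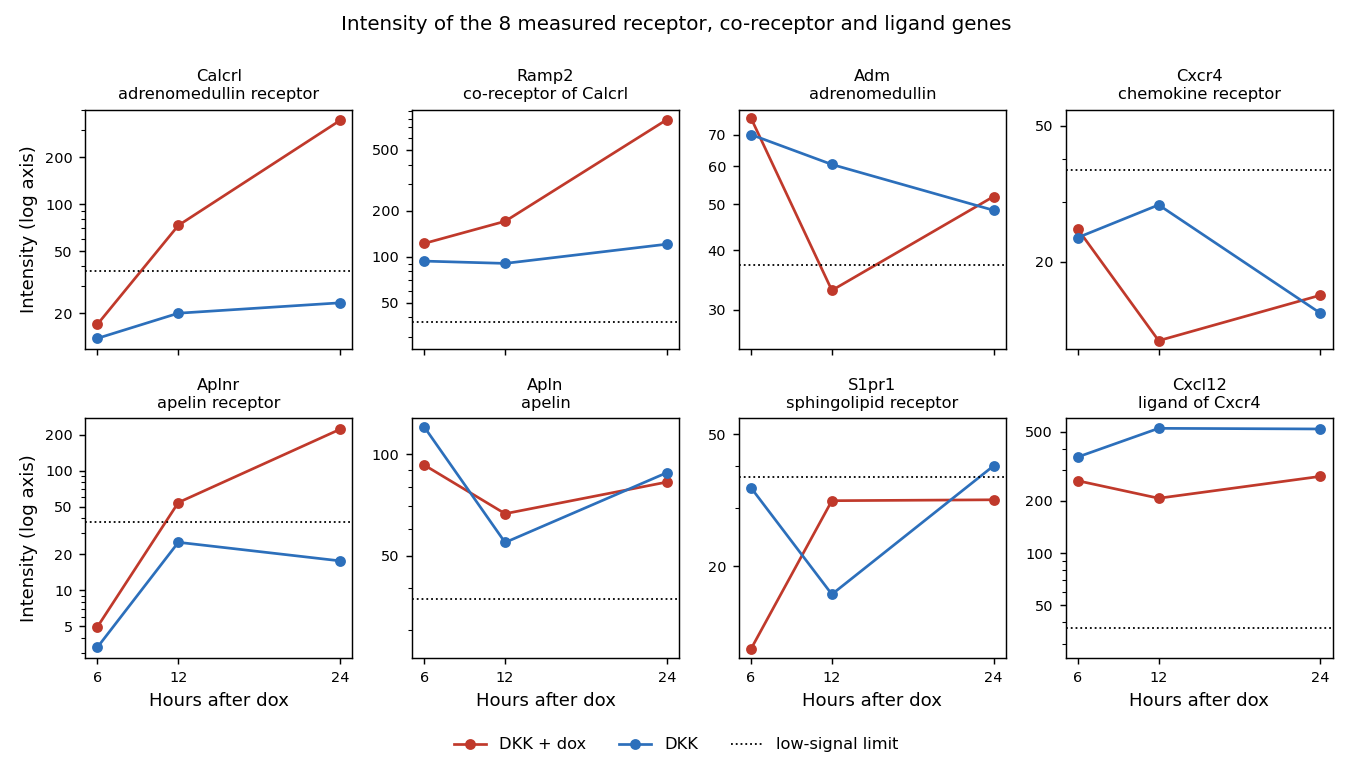
Intensity (log axis) by hours since dox addition for the 8 measured genes, with DKK + dox in red, DKK in blue, 1 array per point and the low-signal limit of 37.2 dotted. Calcrl, Ramp2 and Aplnr separate from DKK by 24 hours (343.43, 787.74 and 222.07 in DKK + dox), while Cxcl12 is below DKK at each time and Cxcr4 stays under the limit.

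Calcrl, the receptor that carries the adrenomedullin signal, rose late. Its probe set (1425814_a_at) read 17.03, 73.08 and 343.43 in DKK + dox at 6, 12 and 24 hours, against 13.84, 20.04 and 23.35 in DKK. The DKK arrays all lay under the low-signal limit, as did the DKK + dox array at 6 hours, so the gene was tested only through the later DKK + dox arrays. The differences were 0.13, 1.21 and 3.05, and the last is 8.28-fold on this scale. The fitted difference was 2.81 (standard error 0.32, adjusted p = 0.00261 from limma). The other 2 probe sets of Calcrl lay under the low-signal limit on all 6 arrays, with differences at 24 hours of 0.93 and -0.40, and with the mean of the 3 probe sets in place of the brightest the fitted difference of 1.02 lay outside the threshold (adjusted p = 0.0624 from limma). Without the 24 hour pair it did not pass either (adjusted p = 0.146 from limma).

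Ramp2, which brings Calcrl to the cell surface and makes it an adrenomedullin receptor, rose with it. Its single probe set (1418187_at) lay above the low-signal limit on all 6 arrays and read 122.03, 170.37 and 787.74 in DKK + dox, against 93.53, 90.34 and 120.69 in DKK. The DKK + dox arrays were all above the DKK arrays, although 122.03 and 120.69 are close, and 5.1 percent of genes tested separated in this way. The differences were 0.32, 0.78 and 2.52, and the fitted difference was 2.28 (standard error 0.23, adjusted p = 0.00204 from limma). Without the 24 hour pair it did not pass (adjusted p = 0.081 from limma).

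The ligand gene did not pass. Adm, which encodes adrenomedullin, read 75.81, 32.96 and 51.89 in DKK + dox and 70.0, 60.59 and 48.55 in DKK. The groups overlapped, and the fitted difference of -0.16 had a 95 percent confidence interval of -0.84 to 0.52 (adjusted p = 0.778 from limma). A second probe set of almost the same mean intensity read 84.87, 38.51 and 71.99 in DKK + dox and 55.82, 53.53 and 33.88 in DKK, and its differences of 0.47, -0.33 and 0.77 gave a fitted difference of 0.55, so that the sign for Adm depended on the probe set. Both probe sets were lower with dox at 12 hours and higher at 6 and 24 hours. Adm is a known target of the hypoxia response, and of 19 genes of that response 6 rose, 1 fell and 12 did not pass. Over all genes tested, 8.32 percent rose and 6.38 percent fell. P4ha1 and P4ha2, collagen hydroxylases of the hypoxia list, rose by a fitted 0.98 and 0.94, and the mitophagy gene Bnip3 by 0.51. Pdk1 was the 1 that fell (-0.54), with all its DKK + dox arrays below the DKK arrays. The summed intensity of the list was 40565.5 to 45494.7 in DKK + dox and 38364.6 to 41079.0 in DKK. The part of this response in the Adm values was not tested.

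Aplnr, the apelin receptor, also rose late. Its brighter probe set (1438651_a_at) read 4.95, 54.17 and 222.07 in DKK + dox, against 3.34, 25.18 and 17.61 in DKK, where all 3 arrays lay under the low-signal limit. The differences were 0.09, 0.71 and 2.67, and the fitted difference was 2.32 (standard error 0.35, adjusted p = 0.00691 from limma). A second probe set read 17.67, 24.59 and 57.12 in DKK + dox and 14.97, 8.64 and 15.78 in DKK, so that it passed the low-signal limit only at 24 hours with dox. When every probe set was tested on its own, both rose, by fitted differences of 2.32 and 1.09 (adjusted p = 0.00541 and 0.0425 from limma). The call was lost with time as a straight line (adjusted p = 0.0728 from limma), without the intensity trend (0.0558) and without the 24 hour pair (0.369).

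Apln, which encodes apelin, was lower with dox at 6 hours and higher at 12 hours. It read 92.83, 66.55 and 82.61 in DKK + dox and 120.41, 54.66 and 88.09 in DKK, above the low-signal limit on all 6 arrays. The groups overlapped, and the fitted difference was -0.04 with a 95 percent confidence interval of -0.58 to 0.51 (adjusted p = 0.946 from limma). The other ligand of Aplnr did rise. Apela, a peptide gene of pluripotent cells and early embryos, read 1519.41, 1983.0 and 1070.72 in DKK + dox, against 1272.8, 1315.76 and 638.77 in DKK. It was higher with dox at each time, while the groups overlapped over all times because both cultures were lower at 24 than at 6 hours. Its fitted difference was 0.82 (standard error 0.11, adjusted p = 0.00436 from limma), and it did not pass with time as a straight line (adjusted p = 0.205 from limma) or without the intensity trend (0.0636).

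**Figure D2:**
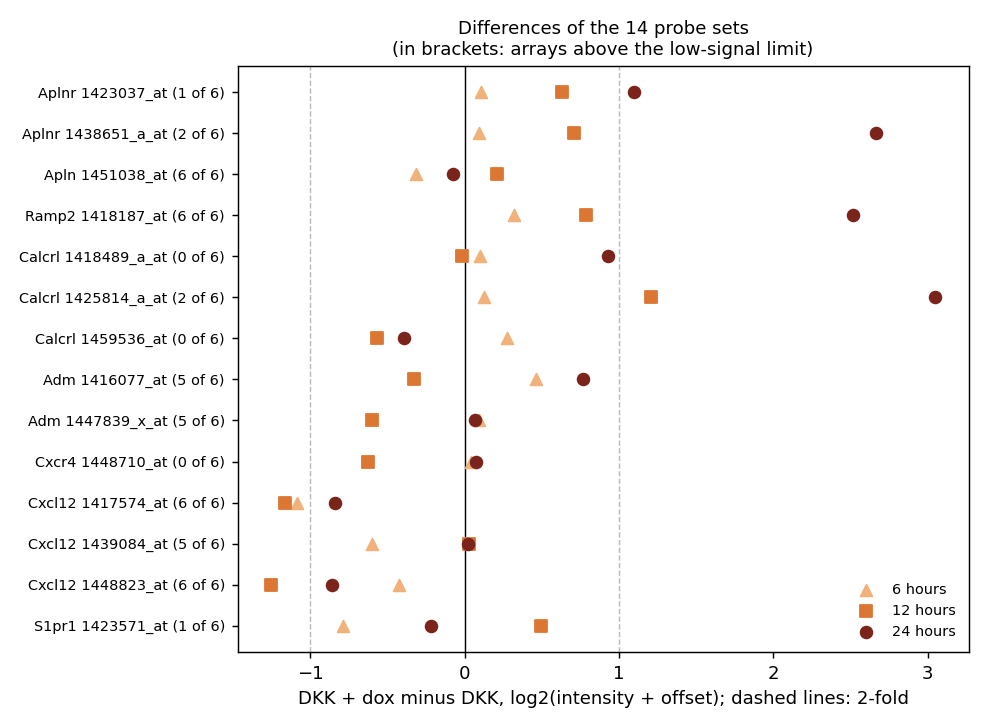
DKK + dox minus DKK in log2 units for the 14 probe sets of the 8 measured genes, with triangles, squares and circles for 6, 12 and 24 hours and dashed lines at 2-fold; brackets give the arrays above the low-signal limit. Both Aplnr probe sets move right with time, 1 of the 3 Calcrl probe sets reaches 3.05, and 2 of the 3 Cxcl12 probe sets lie left of 0 at the 3 times.

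Cxcl12, the chemokine that guides cells carrying Cxcr4, was the 1 gene of the 9 that fell. Its brightest probe set (1448823_at) read 260.99, 206.95 and 276.65 in DKK + dox, against 357.8, 523.43 and 519.0 in DKK. The DKK + dox arrays were all below the DKK arrays, as in 7.09 percent of genes tested. The differences were -0.43, -1.26 and -0.86, furthest apart at 12 hours, and the fitted difference was -1.22 (standard error 0.27, adjusted p = 0.0265 from limma). Over time in the DKK cultures, Cxcl12 was 0.52 higher at 12 than at 6 hours and 0.51 higher at 24 than at 6 hours. In DKK + dox cultures it was 0.08 higher at 24 than at 6 hours.

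A second probe set of Cxcl12 read 72.95, 140.0 and 175.28 in DKK + dox and 177.94, 340.02 and 330.14 in DKK. It was lower with dox at each time, by -1.09, -1.17 and -0.84, and with every probe set tested on its own it lay just over the threshold (adjusted p = 0.0516 from limma). The dimmest probe set read 27.05, 38.71 and 64.33 in DKK + dox and 51.67, 37.63 and 63.09 in DKK, so that it was lower only at 6 hours. The call for Cxcl12 was lost with the mean of the 3 probe sets (adjusted p = 0.0826 from limma), with time as a straight line (0.109), without the intensity trend (0.117) and without the 6 hour pair (0.0539).

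The receptor for Cxcl12 gave no usable signal. Cxcr4 read 24.92, 11.75 and 15.96 in DKK + dox and 23.54, 29.34 and 14.14 in DKK, all under the low-signal limit. Its level and any difference were therefore not measurable on these arrays. Ackr3, a second receptor that takes up Cxcl12, read 44.67, 19.12 and 59.70 in DKK + dox and 50.55, 19.18 and 21.12 in DKK. Its fitted difference was 0.70 (adjusted p = 0.179 from limma), and it was picked out after its values were seen. Of 9 other genes of chemokine signaling, 5 were tested in limma and none passed in either direction.

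S1pr1, a receptor of endothelial cells and lymphocytes, stayed near background. It read 11.25, 31.50 and 31.70 in DKK + dox and 34.46, 16.44 and 40.13 in DKK, and passed the low-signal limit on 1 array only, the DKK array at 24 hours. The groups overlapped, and the fitted difference of -0.13 had a wide confidence interval of -1.07 to 0.81 (adjusted p = 0.879 from limma). Other genes of sphingosine 1-phosphate signaling had clearer signals. Among 12 of them, 5 passed as higher with dox and none as lower, 5 were tested without passing and 2 lay under the low-signal limit. Over all genes tested, 8.32 percent rose and 6.38 percent fell. None of the 5 passed with time as a straight line, and only Plpp3 did without the intensity trend or without the 24 hour pair. Plpp3 is a phosphatase of the plasma membrane that breaks down this lipid and lysophosphatidic acid. It read 775.95, 608.09 and 746.89 in DKK + dox, against 611.96, 350.61 and 331.38 in DKK. Its fitted difference was 1.21 (adjusted p = 0.00231 from limma). Sgpp1, a phosphatase of the same lipid inside the cell, was also higher with dox, by a fitted 1.21. The receptor S1pr2 was higher by 0.89 and Plpp1, a phosphatase related to Plpp3, by 0.64. From 6 to 24 hours S1pr2 and Plpp1 changed by -0.09 and -0.14 in DKK + dox, against -1.34 and -0.60 in DKK.

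**Figure D3:**
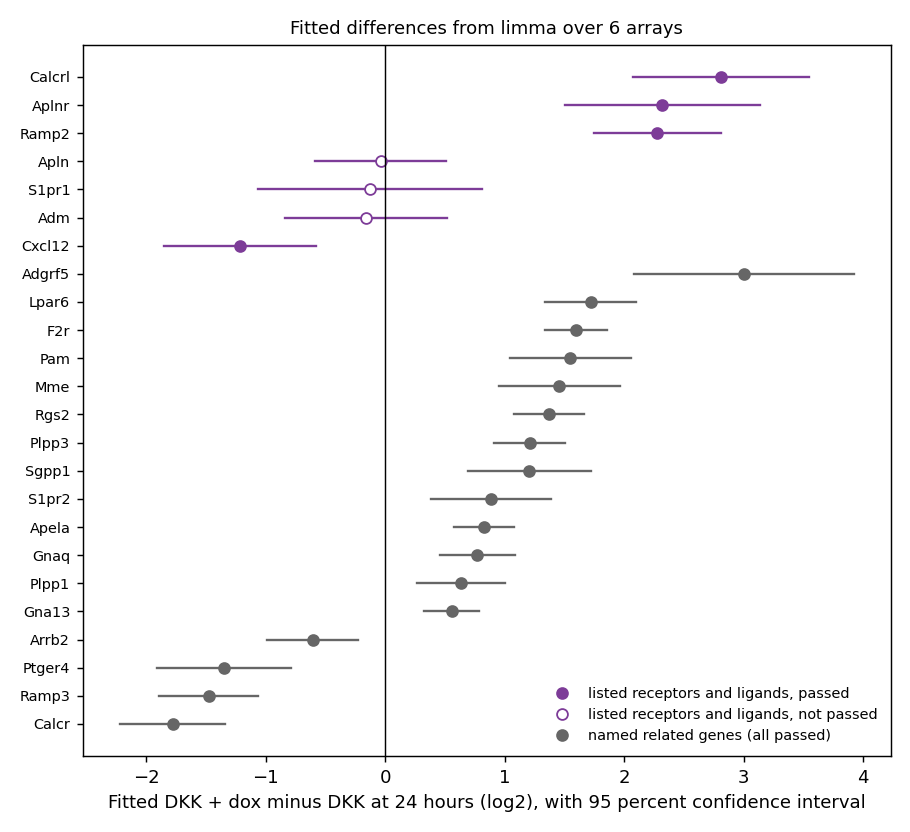
Fitted DKK + dox minus DKK at 24 hours in log2 units from limma, with 95 percent confidence intervals, for the 7 listed genes tested (purple, filled where the adjusted p is under 0.05) and 17 named related genes (grey). The grey genes were picked from those that passed, and the 44 tested related genes that did not pass are not drawn. Calcrl, Aplnr and Ramp2 lie right of 2, the intervals of Apln, S1pr1 and Adm cross 0, and Cxcl12, Calcr, Ramp3, Ptger4 and Arrb2 lie left of 0.

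Of 9 measured relatives and partners of the apelin and adrenomedullin genes, Calcr and Ramp3 fell, Apela and Pam rose and 5 did not pass, the co-receptor Ramp1 among them (fitted difference 0.30, adjusted p = 0.514 from limma). Calcr, a relative of Calcrl that binds calcitonin and, together with a co-receptor such as Ramp3, amylin, read 156.69, 357.27 and 411.99 in DKK + dox, against 262.97, 855.92 and 1254.34 in DKK. Its level was higher at 24 than at 6 hours in both cultures, by 1.29 in DKK + dox and 2.17 in DKK. It was lower with dox at each time, and its fitted difference was -1.78 (standard error 0.19, adjusted p = 0.00231 from limma). It did not pass with time as a straight line (adjusted p = 0.127 from limma).

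Ramp3, a co-receptor that can join either Calcr or Calcrl, read 292.67, 197.96 and 201.61 in DKK + dox, against 430.78, 422.47 and 525.05 in DKK. The DKK + dox arrays were all below the DKK arrays. Its fitted difference was -1.48 (standard error 0.18, adjusted p = 0.00329 from limma), opposite in sign to Ramp2 at 2.28. The difference between the 2 co-receptors was not itself tested. Pam, the enzyme that amidates peptide hormones, adrenomedullin among them, read 247.68, 398.66 and 517.69 in DKK + dox, against 271.14, 224.24 and 148.12 in DKK. The 2 cultures were close at 6 hours and moved apart afterwards, and its fitted difference was 1.55 (adjusted p = 0.00553 from limma). It did not pass without the intensity trend (adjusted p = 0.0588 from limma) or without the 24 hour pair (0.2).

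**Figure D4:**
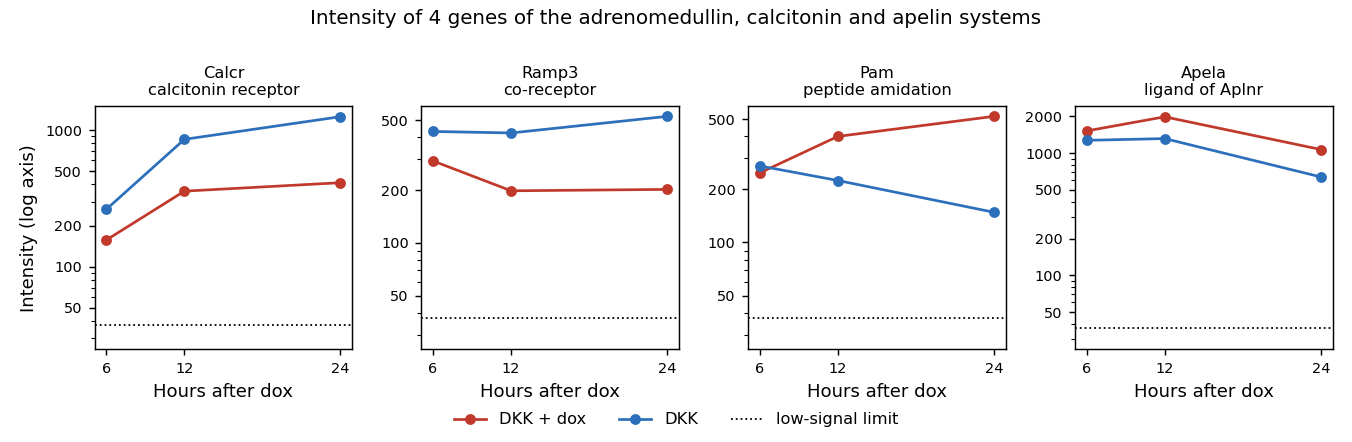
Intensity (log axis) by hours since dox addition for Calcr, Ramp3, Pam and Apela, with DKK + dox in red, DKK in blue and 1 array per point. Calcr and Ramp3 are below DKK at each time (411.99 and 201.61 in DKK + dox against 1254.34 and 525.05 in DKK at 24 hours), and Apela lies higher.

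The 250 bases before the start site were compared for receptors that moved in opposite directions and for Cxcl12, since Snail is known to bind the sequence CAGGTG. They come from RefSeq (GRCm38.p6), which gave such a stretch for 6 of the 9 genes and not for Aplnr, Ramp2 or S1pr1. CAGGTG was searched on both strands, on the other of which it reads CACCTG, and is one form of the wider CANNTG. It was in 17.2 percent of 32851 promoter stretches of this length, and CANNTG in 66.2 percent. None of the 6 stretches of the listed genes held CAGGTG. Those of Apln and Ednra held CANNTG, 3 times and 1 time. Ramp3, Calcr and Apela were searched as well, chosen with their values known, while Ptger4 and Arrb2, which also fell, were not searched. Apela, which rose, held CANNTG 2 times and no CAGGTG. A link between the sequence and the direction of change was not tested. Ramp3 held 1 CAGGTG, beginning 130 bases before the start, and so did 1 of the 2 starts of Calcr, 115 bases before it; these are in capitals. They lie at chr2:84425267-84425516 (minus strand) for Calcrl, chr6:117168285-117168534 (plus) for Cxcl12, chr11:6658283-6658532 (plus) for Ramp3 and chr6:3764714-3764963 (minus) for Calcr.
Calcrl: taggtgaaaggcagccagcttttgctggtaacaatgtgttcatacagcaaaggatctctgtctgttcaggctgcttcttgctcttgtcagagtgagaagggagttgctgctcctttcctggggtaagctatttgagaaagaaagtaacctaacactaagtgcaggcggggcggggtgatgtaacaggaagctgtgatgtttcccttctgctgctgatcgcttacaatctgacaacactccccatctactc
Cxcl12: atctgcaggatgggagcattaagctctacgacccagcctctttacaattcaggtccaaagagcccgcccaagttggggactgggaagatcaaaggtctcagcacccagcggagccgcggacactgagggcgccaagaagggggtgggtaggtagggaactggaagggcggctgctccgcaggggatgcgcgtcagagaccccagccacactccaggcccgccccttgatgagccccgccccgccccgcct
Ramp3: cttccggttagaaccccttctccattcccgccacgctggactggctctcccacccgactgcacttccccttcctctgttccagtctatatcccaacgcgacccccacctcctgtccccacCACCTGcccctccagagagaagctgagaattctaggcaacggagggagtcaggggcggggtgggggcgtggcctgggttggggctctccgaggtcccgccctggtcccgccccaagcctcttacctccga
Calcr: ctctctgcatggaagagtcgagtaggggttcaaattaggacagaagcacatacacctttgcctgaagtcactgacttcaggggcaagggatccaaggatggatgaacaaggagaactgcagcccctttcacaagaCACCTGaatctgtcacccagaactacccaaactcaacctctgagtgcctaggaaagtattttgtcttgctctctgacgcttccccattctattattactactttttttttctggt

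Beyond these, receptors of related function and their signaling partners were counted from 6 lists set by role. Over the 80 genes of these lists, 75 were measured and 64 tested, of which 16 rose, 4 fell and 44 did not pass, beside 8.32 percent of all genes tested that rose and 6.38 percent that fell. The median difference at 24 hours over the measured genes was 0.17, against 0.02 over all genes tested. Among 22 other receptors of vessels and blood, 15 were tested, of which 3 rose and 1 fell. F2r, the thrombin receptor, read 4908.69, 7488.48 and 9363.37 in DKK + dox, against 4169.42, 3629.66 and 3265.94 in DKK, and its fitted difference was 1.59 (adjusted p = 0.000858 from limma). F2r was higher with dox at each time, and the DKK + dox arrays lay above all DKK arrays. Lpar6, a receptor for lysophosphatidic acid, rose by 1.72, and Adgrf5, an adhesion receptor of lung and endothelium, by 3.00. The DKK arrays of Adgrf5, at 10.3, 12.95 and 6.65, lay under the low-signal limit. Ptger4, a prostaglandin E2 receptor, fell by 1.35 in the fit, with 103.59, 157.66 and 144.04 in DKK + dox against 173.63, 353.69 and 326.09 in DKK.

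Of 20 G protein subunits, arrestins, receptor kinases and regulators, 18 were tested, of which 5 rose, 1 fell and 12 did not pass. Rgs2, which shuts off Gq signaling, rose most, with 191.08, 873.16 and 1135.61 in DKK + dox against 156.21, 553.69 and 413.38 in DKK (fitted difference 1.37, adjusted p = 0.00177 from limma). The G protein subunits Gnaq and Gna13 rose by 0.77 and 0.55, and Arrb2, an arrestin that takes receptors from the surface, fell by 0.61. Of 7 genes of endothelin signaling, Mme rose (fitted difference 1.46, adjusted p = 0.00658 from limma) and 6 did not pass. Mme is a surface peptidase that degrades many signaling peptides. Over the 80 genes, the counts of 16 and 4 became 3 (Pam, F2r and Lpar6) and 1 (Ramp3) with time as a straight line, and 4 (Plpp3, Rgs2, F2r and Lpar6) and 2 (Ramp3 and Calcr) without the intensity trend. Without the 24 hour pair 4 rose (Apela, Plpp3, F2r and Adgrf5). With the difference taken as equal at 6, 12 and 24 hours, none of them and no other gene on the arrays passed (lowest adjusted p = 0.0516 from limma, 2927 genes with an unadjusted p under 0.05).

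**Figure D5:**
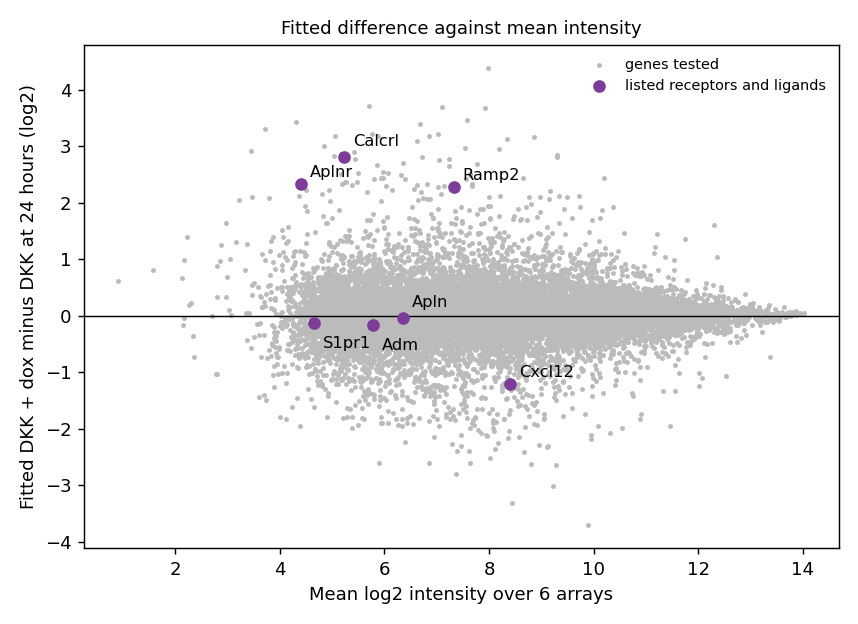
Fitted DKK + dox minus DKK at 24 hours in log2 units against the mean log2 intensity over 6 arrays, for the 14755 genes tested (grey) and the 7 listed genes among them (purple). Calcrl, Aplnr and Ramp2 lie above 2 and Cxcl12 below 0.

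The profiles of the listed genes were compared by the Euclidean distance between log2 values centred on each gene's mean over the 6 arrays, as a description. Distances were 0.65 between Calcrl and Aplnr, 0.78 between Calcrl and Ramp2 and 1.07 between Aplnr and Ramp2, the 3 genes that share a rise. Apln and Adm, neither of which passed, lay 0.71 apart, and Cxcl12 lay at 3.63 from Calcrl. Over all genes tested, those nearest to Calcrl were Rhoj, a small GTPase of endothelial cells (distance 0.33), Tgfb1i1, an adaptor of focal adhesions (0.60), and the ETS transcription factor Ets1 (0.64). Rhoj read 24.8, 91.2 and 320.7 in DKK + dox, against 17.7, 19.0 and 27.6 in DKK. Those nearest to Cxcl12 were Rims4 (0.19), 0610010F05Rik (0.20) and Cdh1 (0.24), which encodes E-cadherin. Cdh1 read 3464.5, 2867.6 and 3063.4 in DKK + dox, against 4480.8, 5957.1 and 6221.7 in DKK. In DKK both Cdh1 and Cxcl12 were higher at 12 and 24 hours than at 6 hours.

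Most of the tested markers of endothelium and blood rose as well. Of 15 such genes 12 were tested, of which 10 rose, none fell and 2 did not pass, beside 8.32 percent of all genes tested that rose, and Pecam1, Tie1 and Emcn lay under the low-signal limit on all 6 arrays. Cdh5, counted in the 10, exceeded that limit only on the DKK + dox array at 24 hours (144.68). Kdr, the VEGF receptor of vascular precursors, rose by a fitted 2.77, the ETS factor Fli1 by 3.71, Sox18 by 2.70 and Gata2 by 3.09. Esam and Plvap did not pass, and Plvap was lower with dox at each time, by -0.54, -0.81 and -0.05. The summed intensity of this list was 1055.0 to 5175.8 in DKK + dox and 978.6 to 1556.3 in DKK. Of 12 genes of parietal endoderm, 5 rose, among them Sox7 at 2.33 and Nid1 at 2.12, none fell and 7 did not pass. The summed intensity of these 12 was 4985.2 to 7339.8 in DKK + dox and 3939.4 to 7326.6 in DKK. Of 11 measured genes of nascent mesoderm, Gsc rose (2.36), 8 did not pass and 2 lay under the limit, and the sum was 514.9 to 1177.1 in DKK + dox and 558.8 to 708.3 in DKK. The DKK arrays of Gsc, at 8.48, 21.6 and 21.85, all lay under the limit, so it was tested only through its DKK + dox arrays. Of 10 genes of definitive endoderm, Sox17 (1.67) and Hhex (1.16) rose, Trh (-3.71) and Foxa1 (-1.16) fell, 5 did not pass and Cxcr4, also on this list, lay under the limit, and the sum was 882.7 to 2044.0 in DKK + dox and 2579.1 to 3845.8 in DKK. Trh alone read 1102.89, 204.38 and 340.61 in DKK + dox and 1458.42, 2034.17 and 3253.52 in DKK. It made up a large part of the DKK sums, so the gap between the sums does not speak for the list as a whole. Of 9 measured genes of visceral endoderm, Dab2 rose (1.31), 6 did not pass and 2 lay under the limit, with a sum of 1021.3 to 1787.2 in DKK + dox and 811.3 to 1852.4 in DKK. Of 11 genes of feeder fibroblasts, Col3a1 (2.42) and Fbln2 (0.91) rose, 7 did not pass and 2 lay under the limit, with a sum of 755.5 to 852.6 in DKK + dox and 527.4 to 919.2 in DKK. From 6 to 24 hours Fbln2 changed by -0.87 in DKK + dox and -1.79 in DKK, and Dab2 by -0.30 and -1.34. The part of these cell types in the rise of Calcrl, Ramp2 and Aplnr was not tested. More cells of a type and more RNA per cell cannot be told apart in these bulk cultures. Genes of ESCs and epiblast had a summed intensity of 39156.3 to 41385.4 in DKK + dox and 42432.3 to 46670.0 in DKK. Of 9 such genes, 4 fell and the other 5 did not pass, with Fgf5 at -2.63, Utf1 at -0.33, Sox2 at -0.32 and Dnmt3b at -0.29. Fitted values can lie on either side of the measured difference at 24 hours. That measured difference was -1.71 for Fgf5, -3.18 for Trh, 1.85 for Gsc and 3.04 for Sox7.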

How the data were processed

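The authors hybridised RNA of A2.Snail cultures to Affymetrix mouse genome arrays and normalized and modeled them with dChip; its version and model form were not given in the sources used here. Values were deposited as intensities on a linear scale with a lowest value of 1. No depth applies, and the number of arrays limits the precision.

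Of 45037 probe sets, 34945 carried 1 symbol in the platform annotation, and 34741 of these matched RefSeq by Entrez ID. The probe set of highest mean stood for each gene. Genes whose highest value did not exceed 37.2 (pooled 40th percentile) were left out, which kept 14755 of 18193, and log2(intensity + 20.6) was used, 20.6 being the pooled 25th percentile. limma 3.58.1 in R 4.3.3 fitted 3 time blocks and dox in proportion to hours (eBayes with an intensity trend, 2 residual and 5.5 prior degrees of freedom), with Benjamini-Hochberg adjustment over all genes tested and a threshold of 0.05. The fit was tested on simulated data. The methods state no test for these arrays.

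The listed genes, gene lists and tests were chosen with earlier results of these data known. Named besides them are, per list, up to 4 genes with the largest fitted differences past the threshold, and the 3 profiles nearest to the largest rise and the largest fall. Alternatives changed the offset, filter, scaling, probe set, fold, model and times. Figures used matplotlib 3.10.9 in Python 3.11.15.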

Additional observations from a re-analysis of the deposited data

Results flagged for a closer look

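Some genes had differences of opposite sign at different times, each resting on 1 array per condition and time, and the change between times was not tested. Apln was at -0.31 at 6 hours and 0.21 at 12 hours, above the low-signal limit on all 6 arrays. Adm was at -0.60 at 12 hours and 0.09 at 6 hours, with its DKK + dox array at 12 hours under the limit. Cxcr4 was at -0.63 at 12 hours and 0.07 at 24 hours, and S1pr1 at -0.79 at 6 hours and 0.49 at 12 hours, both on arrays under the limit. Pam was at -0.12 at 6 hours and 1.67 at 24 hours, and S1pr2 at -0.22 and 1.03 at those times. Sgpp1 was at -0.004 at 6 hours, close to 0, and at 1.42 at 24 hours.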

How the results depend on the processing

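The rise of Calcrl, Ramp2 and Aplnr and the fall of Cxcl12 kept their calls with both other offsets, without the filter and with it at the 60th percentile, with arrays centred on the median, with quantile normalization, with every probe set tested on its own and without the 12 hour pair. The 3 genes that rose became 0 with a difference held constant over time, 0 without the 24 hour pair and 1 (Ramp2) when all 6 arrays had to exceed the low-signal limit, a filter chosen after seeing the data that removes Calcrl and Aplnr. The 1 that fell became 0 with the mean of all probe sets, without the intensity trend, with linear time, with a constant difference and without the 6 hour pair. Of the related genes, the 16 that rose became 10 with the mean of all probe sets, 0 with a constant difference, 4 without the intensity trend, 3 with linear time and 4 without the 24 hour pair. The 4 that fell became 2 with only plain probe sets, 0 with a constant difference, 2 without the intensity trend and 1 with linear time. At 24 hours no listed gene was 2-fold lower, but 1 (Cxcl12) was 1.5-fold lower. Over all genes, 1227 rose and 941 fell, against 0 and 0 with a constant difference, 209 and 76 without the intensity trend, 121 and 80 with linear time, 793 and 533 without the 6 hour pair and 229 and 499 without the 24 hour pair. The cause of these changes was not tested.

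Signs turned, with no call in either setting, for Apln without the 6 hour pair (0.025) and without the 24 hour pair (0.087), for Adm with the mean of all probe sets (0.19), with only plain probe sets (0.55) and without the 12 hour pair (0.085), for S1pr1 without the 6 hour pair (0.024) and without the 24 hour pair (0.16), and for Ackr3 without the 24 hour pair (-0.10). The labels give no replicate numbers, so arrays could be paired only by hour. The time block compares the DKK + dox and DKK arrays of the same hour, and the constant difference is a test of those 3 pairs. Low signal limits Cxcr4 on all 6 arrays, S1pr1 on all but 1, and Calcrl and Aplnr on the 3 DKK arrays and the DKK + dox array at 6 hours.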
